A study of Mus musculus with 9 samples.

Results

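The core circadian clock genes were followed in the renal cortex, the outer layer of the kidney, of lean, diabetic and rosiglitazone-treated diabetic mice. They were chosen by gene symbol and comprise the activators Arntl, Clock and Npas2 and the repressors Per1, Per2, Per3, Cry1 and Cry2, which are 8 of the 21950 genes with mRNA values. The control group was made of db/m mice, which carry 1 mutant and 1 normal copy of the leptin receptor gene and stay lean. The dbdb group was made of db/db mice, which lack the signalling form of the receptor in every cell and become obese and diabetic, and these mice were given vehicle by gavage over the same 8 weeks as the treated mice. The dbR group was made of db/db mice that received rosiglitazone, a drug that activates the nuclear receptor PPARγ, at 20 mg/kg/day by gavage for 8 weeks, from 7 weeks of age. All were male mice of the C57BL/KsJ line BKS.Cg-Dock7m+/+Leprdb/Nju, kept in light and dark cycles with free access to food, and the cortex was taken at 15 weeks. After the 8 weeks mice were also placed in metabolic cages and fasted for a glucose tolerance test. Whether the sequenced mice had been fasted when the cortex was taken is not given in the sources used here. Each group had 3 mice with 1 library each, so the p-values measure the spread between mice. Lean mice given rosiglitazone were not analysed here, and whether the control mice were gavaged is not given in the sources used here. The hour at which the tissue was taken is not given in the sources used here, and with 1 collection per mouse a change in level cannot be told apart from a change in the timing of a daily rhythm.

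The circadian clock is a feedback loop of transcription with a period of about a day. ARNTL (also called BMAL1) pairs with CLOCK, or with its relative NPAS2, and the pair binds E-box sequences and turns on the Per and Cry genes. The PER and CRY proteins build up, enter the nucleus and block that same pair until they are degraded, after which the cycle starts again. A second loop of nuclear receptors, REV-ERB (Nr1d1 and Nr1d2) and ROR, sets the transcription of Arntl, and the output factors DBP, TEF and HLF carry the rhythm to D-box sequences in other genes. In the kidney the clock is known for daily rhythms in sodium and water handling, and Per1 and Per2 are also known targets of the glucocorticoid receptor.

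Levels are FPKM, that is, sequenced fragments per kilobase of a transcript, scaled to the total mapped in the library and summed over the transcripts of a gene. Differences are log2 fold changes of FPKM + 0.1 from limma with their standard error (SE), and a gene passed the test at a Benjamini-Hochberg adjusted p under 0.05 over the 14537 genes whose FPKM averaged at least 0.1. All 8 clock genes passed that filter. The libraries held an estimated 23.8 M to 29.5 M fragments, and mitochondrial transcripts made up 26.9% to 32.8% of the mRNA FPKM. Lepr, the gene with the db mutation, read 1.05 to 1.23 FPKM in control mice, 0.304 to 0.652 in dbdb mice and 0.335 to 0.512 in dbR mice. The db mutation changes the splicing of Lepr, which FPKM summed per gene does not resolve. Proximal tubule markers summed to 4696 to 6271 FPKM in every library, while the 4 adipocyte markers together reached at most 0.756 FPKM. The 4 adrenal markers summed to 0.597 to 0.943 FPKM in control mice, 1.10 to 1.38 in dbdb mice and 0.698 to 1.28 in dbR mice, nearly all of it Star, and Cyp11b1 was listed at 0 in all 9 libraries. The dbdb values of Star lay above all control values (log2 fold change 0.62, limma adjusted p = 0.0647), and the part of adrenal tissue in the clock gene values was not tested. Positions of genes are those of the GENCODE annotation of GRCm38.

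The promoters of 4 members that are described next, 3 with a large difference between the groups and 1 without, are printed because the clock acts on them through short DNA motifs. RefSeq promoter windows (GRCm38.p6, 250 bases before to 50 after a start) were found for the clock genes other than Per2, 7 of 8, in 11 windows. Both strands were searched for 6 motifs. The E-box was taken as CACGTG, the E'-box as the variant that ends in another base, CACGTT, and the D-box as the 8 letters TTATGTAA. The cAMP response element was searched for as TGACGTCA, and the ROR element and the glucocorticoid response element by their usual patterns. The E'-box matches below lie on the opposite strand and so read AACGTG in print. The bases upstream of the start are printed in the direction of the gene, without annotated exon bases, and capitals mark the matches. The Cry2 stretch is chr2:92434070-92434319 on the minus strand, that of Cry1 is chr10:85185065-85185304 on the minus strand and that of Per3 is chr4:151044666-151044915 on the minus strand, all 3 outside the annotated span of the gene. The Per1 stretch is chr11:69098699-69098947 on the plus strand, which lies before the start of the RefSeq transcript but inside the annotated span of Per1, in sequence that is not exonic.
Cry1: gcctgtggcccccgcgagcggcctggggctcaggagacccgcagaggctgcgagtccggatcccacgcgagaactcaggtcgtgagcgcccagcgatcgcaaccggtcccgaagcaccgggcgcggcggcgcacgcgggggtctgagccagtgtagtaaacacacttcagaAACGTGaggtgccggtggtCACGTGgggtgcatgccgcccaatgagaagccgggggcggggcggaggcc
Cry2: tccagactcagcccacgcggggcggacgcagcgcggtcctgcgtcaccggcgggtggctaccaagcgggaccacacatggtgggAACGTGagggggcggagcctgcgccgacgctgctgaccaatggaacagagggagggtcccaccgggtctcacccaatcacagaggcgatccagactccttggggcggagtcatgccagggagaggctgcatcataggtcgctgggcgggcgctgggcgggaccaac
Per1: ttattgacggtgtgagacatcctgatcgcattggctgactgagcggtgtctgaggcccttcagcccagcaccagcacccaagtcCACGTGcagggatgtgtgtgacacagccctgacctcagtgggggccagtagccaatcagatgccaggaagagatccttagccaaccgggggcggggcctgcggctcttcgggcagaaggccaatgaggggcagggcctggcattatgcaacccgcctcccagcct
Per3: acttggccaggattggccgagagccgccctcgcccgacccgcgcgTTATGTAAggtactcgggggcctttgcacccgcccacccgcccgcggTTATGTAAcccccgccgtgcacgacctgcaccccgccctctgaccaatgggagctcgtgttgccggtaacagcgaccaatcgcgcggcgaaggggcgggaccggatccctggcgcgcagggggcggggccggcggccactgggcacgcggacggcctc
Per1 held an E-box 166 bases before the start printed here and none of the 6 motifs in the window of its other start, and Cry2 an E'-box 166 bases before its own. Cry1 held an E'-box 79 bases and an E-box 60 bases before the start, with no overlap between them. Per3 held D-boxes 205 and 158 bases before the start and no E-box or E'-box. Of all 32851 windows of this length, 7.15% held an E-box, 4.68% an E'-box and 0.938% a D-box. The windows of Clock, Npas2 and the first start of Arntl held none of the 6 motifs. The window of the second Arntl start held a ROR element 27 bases after the start, a motif in 0.606% of all windows. A match describes the letters of the window and is not a binding site.

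In the lean mice Clock and Per1 were the most abundant of the 8 genes, at 13.8 ± 0.68 and 13.8 ± 2.58 FPKM (SD, n = 3), and their libraries overlapped. Per3, Per2 and Cry2 followed at 7.57 ± 0.61, 7.17 ± 0.62 and 6.04 ± 0.40 FPKM. Npas2, Cry1 and Arntl stood far lower, at 0.918 ± 0.86, 0.872 ± 0.15 and 0.448 ± 0.13 FPKM. The values of Per3 and Per2 overlapped, as did those of Npas2 and Cry1, while the other neighbours in this order did not. The places of Npas2 and Per1 rest in part on short transcripts. Of the Npas2 mean, 0.551 FPKM came from a transcript of 484 bases. The full-length Npas2 transcript averaged 0.367 FPKM, below the means of Cry1 and Arntl. Of the Per1 mean, 5.61 FPKM came from a transcript of 496 bases. In the dbdb group the order became Per1, Per2, Clock, Cry2, Per3, Cry1, Arntl and Npas2, with overlap between Clock and Cry2 and between Arntl and Npas2. In the dbR group it was Per1, Clock, Per2, Cry2, Per3, Cry1, Arntl and Npas2, with overlap between Clock and Per2, between Per2 and Cry2 and between Arntl and Npas2. The low genes rest on few reads, an estimated 20 to 81 fragments per library for Arntl, 8 to 72 for Npas2 and 52 to 400 for Cry1, against 554 to 3281 for the 5 others.

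**Figure D1:**
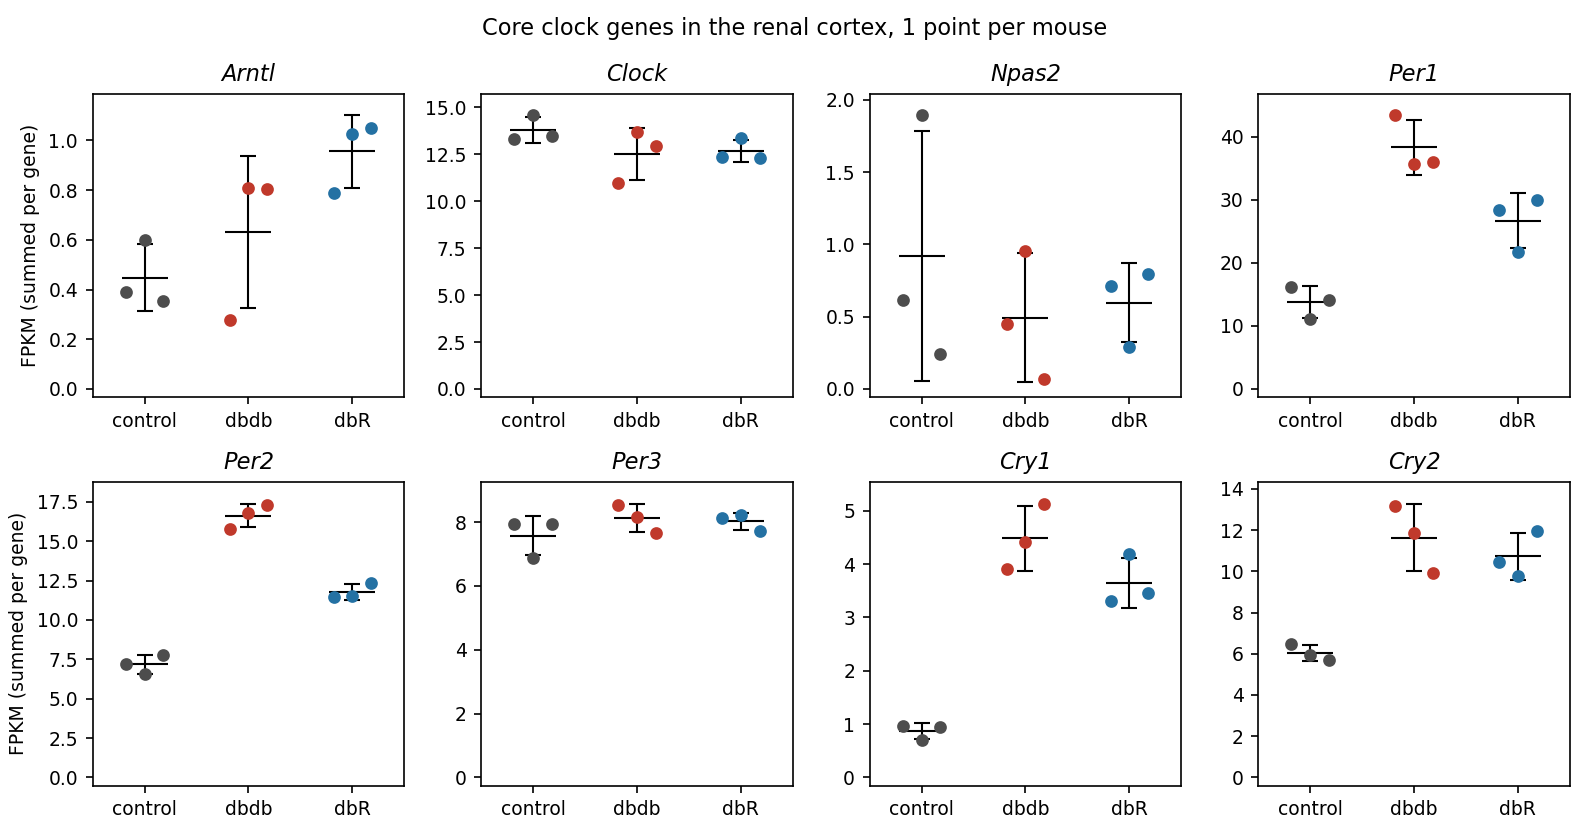
FPKM of the 8 core clock genes (vertical axes, from 0) in the control, dbdb and dbR groups, with 1 point per mouse and the mean ± SD as black bars. Per1, Per2, Cry1 and Cry2 stood higher in every dbdb and dbR library than in every control library, whereas the groups of Clock, Per3 and Npas2 overlapped.

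The first comparison asked how the diabetic cortex differed from the lean cortex. The Per and Cry repressors rose with the exception of Per3, and no activator passed the test. Of the 8 clock genes, 4 passed the test in dbdb vs. control, all 4 upward, where 26.4% of all genes tested passed in either direction and 13.1% passed upward. The same 4 genes were those whose dbdb libraries all lay above the control libraries, which held for 21.2% of all genes. The median log2 fold change of the 8 genes was 0.63, and that of all genes was -0.003. In whole cortex, more transcript per cell and more cells of an expressing type cannot be told apart.

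Cry1 (ENSMUSG00000020038, chr10:85131700-85185064 on the minus strand), a repressor that binds the CLOCK and ARNTL pair directly, had the largest difference of the 8. It read 0.971, 0.695 and 0.949 FPKM in control mice, 3.92, 4.41 and 5.13 in dbdb mice and 3.30, 4.18 and 3.45 in dbR mice. The mean of the dbdb group was 5.14 times that of the control group, and the gap between the groups was far wider than the spread within them. The log2 fold change was 2.24 (SE 0.15, limma adjusted p = 1.70e-05). Cry2 (ENSMUSG00000068742, chr2:92403646-92434043 on the minus strand), its close relative, read 6.49, 5.93 and 5.71 FPKM in control mice and 13.2, 11.8 and 9.91 in dbdb mice. Its dbdb mean was 1.93 times the control mean, with a log2 fold change of 0.93 (SE 0.11, limma adjusted p = 0.000365). In the dbR libraries Cry2 read 10.4, 9.77 and 11.98 FPKM, within the range of the dbdb libraries at 2 of 3 mice.

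Per1 (ENSMUSG00000020893, chr11:69095217-69109960 on the plus strand), the PER gene known for its fast response to hormones and other signals, read 16.2, 11.03 and 14.1 FPKM in control mice and 43.4, 35.7 and 36.0 in dbdb mice. Its mean rose 2.78-fold, and the lowest dbdb library was above the highest control library by more than the range of either group. The log2 fold change was 1.48 (SE 0.16, limma adjusted p = 0.000163). Per2 (ENSMUSG00000055866, chr1:91415982-91459324 on the minus strand), which encodes a central member of the repressor complex, read 7.18, 6.55 and 7.79 FPKM in control mice and 15.8, 16.8 and 17.3 in dbdb mice. Its mean rose 2.32-fold, and the log2 fold change was 1.20 (SE 0.08, limma adjusted p = 1.22e-05). Per3 (ENSMUSG00000028957, chr4:151003652-151044665 on the minus strand), the third PER gene, read 7.93, 6.86 and 7.93 FPKM in control mice and 8.55, 8.17 and 7.66 in dbdb mice, and the groups overlapped. Its log2 fold change was 0.10 (95% interval -0.08 to 0.28, limma adjusted p = 0.382). Under a scaling that left out mitochondrial transcripts, which moved the median of all genes by 0.15, Per3 passed with a log2 fold change of 0.26 (limma adjusted p = 0.0376).

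Among the activators Clock (ENSMUSG00000029238, chr5:76209868-76304792 on the minus strand), which encodes a DNA-binding partner of ARNTL, read 13.3, 14.6 and 13.5 FPKM in control mice and 10.99, 13.7 and 12.9 in dbdb mice. The log2 fold change was -0.14 (95% interval -0.33 to 0.05, limma adjusted p = 0.254), and the interval leaves no room for a difference of the size seen in Per1, Per2, Cry1 or Cry2. Arntl (ENSMUSG00000055116, chr7:113207465-113314126 on the plus strand), the partner without which the loop does not run, read 0.389, 0.601 and 0.355 FPKM in control mice and 0.276, 0.808 and 0.804 in dbdb mice. In 1 dbdb mouse it was below all control mice and in the other 2 it was above them, so no direction could be given (log2 fold change 0.33, 95% interval -0.41 to 1.07, limma adjusted p = 0.505). Without dbdb replicate 1, the low library, the log2 fold change was 0.75 and passed (limma adjusted p = 0.0452). Npas2 (ENSMUSG00000026077, chr1:39193731-39363236 on the plus strand), which can stand in for CLOCK, ranged from 0.245 to 1.89 FPKM in control mice and from 0.0703 to 0.956 in dbdb mice, and its interval of -2.40 to 0.86 spanned changes in both directions.

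**Figure D2:**
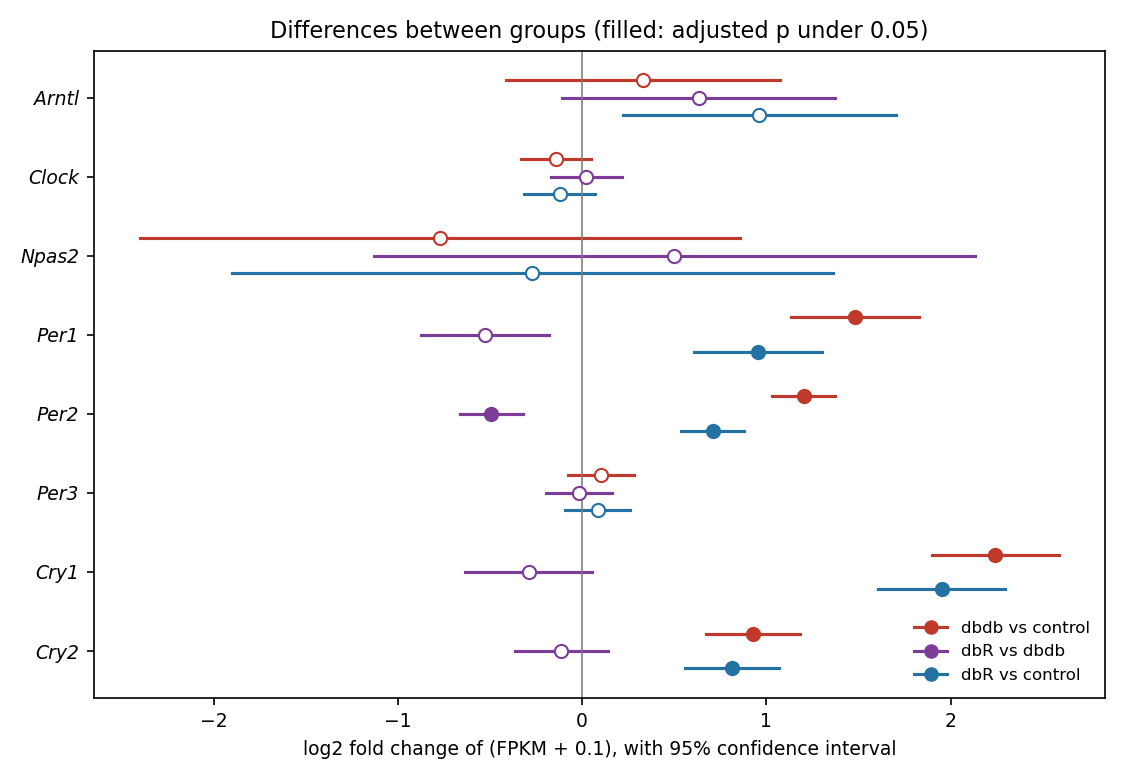
Log2 fold change of FPKM + 0.1 (horizontal axis) with its 95% interval from limma for the 8 clock genes in dbdb vs. control (red), dbR vs. dbdb (purple) and dbR vs. control (blue); filled points have an adjusted p under 0.05. Per1, Per2, Cry1 and Cry2 lie to the right of 0 in both comparisons with the control group, Per2 alone has a filled point in dbR vs. dbdb, and the widest intervals belong to Npas2.

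The second comparison asked how the rosiglitazone-treated diabetic mice differed from those given vehicle. Per2 was lower in the dbR group, and no other clock gene passed the test. That is 1 of 8 genes, where 0.743% of all genes passed in either direction and 0.179% passed downward. The share of all genes rests on 108 calls, which numbered 70, 2 and 10 without dbR replicate 1, 2 or 3, 36, 31 and 141 without dbdb replicate 1, 2 or 3, and 72 to 91 without a control library. At an unadjusted p under 0.05 there were 2 of the 8, Per1 and Per2, against 17.5% of all genes. All dbR libraries lay below all dbdb libraries for the same 2, and for 11.9% of all genes. The median log2 fold change of the 8 was -0.07, and that of all genes was -0.0022. These contrasts and those with the control group share libraries, so their values are not independent of each other.

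Per2 read 11.4, 11.5 and 12.3 FPKM in dbR mice, below the 15.8 to 17.3 of the dbdb libraries and above the 6.55 to 7.79 of the control libraries, and the 3 groups did not overlap. The log2 fold change was -0.49 (SE 0.08, 95% interval -0.67 to -0.32, limma adjusted p = 0.0282). The size of the difference kept between -0.56 and -0.46 in 19 alternative analyses, but its adjusted p rose above the threshold in 9 of them. Among those 9, leaving out dbdb replicate 1 or 2 gave limma adjusted p values of 0.0529 and 0.0895, and leaving out dbR replicate 1, 2 or 3 gave 0.0674, 0.150 and 0.0647. Per1 read 28.4, 21.7 and 30.0 FPKM in dbR mice, also between the other groups in each of the 3 mice. Its log2 fold change of -0.53 (SE 0.16, unadjusted p = 0.00685) did not pass after adjustment (limma adjusted p = 0.130), and in the 19 alternatives the adjusted p lay between 0.0713 and 0.369.

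Cry1 and Cry2 did not pass in dbR vs. dbdb, with log2 fold changes of -0.29 (95% interval -0.64 to 0.05, limma adjusted p = 0.367) and -0.11 (-0.37 to 0.14, limma adjusted p = 0.655). Per3 read 8.12, 8.21 and 7.72 FPKM in dbR mice, with a log2 fold change of -0.02 (-0.20 to 0.16). Clock read 12.4, 13.3 and 12.3 FPKM, with a log2 fold change of 0.02 (-0.17 to 0.21). The intervals of Per3 and Clock were the narrowest of the genes that did not pass and allow only small changes in either direction. Arntl read 0.788, 1.03 and 1.05 FPKM in dbR mice, where only 1 of 3 values was inside the range of the dbdb group, and its log2 fold change was 0.63 (-0.11 to 1.37, limma adjusted p = 0.362). Without dbdb replicate 1 it was 0.21 (limma adjusted p = 0.694). Npas2 read 0.711, 0.287 and 0.794 FPKM, with a log2 fold change of 0.50 (-1.13 to 2.13).

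Against the lean controls, the treated mice still had higher transcripts of the repressors other than Per3. In dbR vs. control 4 of the 8 genes passed, all upward, where 24.1% of all genes passed in either direction and 12.3% upward. These were Cry1 with a log2 fold change of 1.95 (limma adjusted p = 4.17e-05), Per1 with 0.95 (0.00195), Cry2 with 0.81 (0.000873) and Per2 with 0.71 (0.000223). The call of Per1 was lost in 1 of 19 alternatives (limma adjusted p = 0.0546), and those of Cry1, Cry2 and Per2 held in every one. The dbR libraries of these 4 genes and of Arntl all lay above the control libraries, which held for 20.8% of all genes. The log2 fold change of Arntl was 0.96 (SE 0.33, unadjusted p = 0.0163), which did not pass (limma adjusted p = 0.0613). It passed without dbdb replicate 1 (0.00975) and in 3 other alternatives, and leaving out each library in turn gave adjusted p values up to 0.165. Clock, Per3 and Npas2 had log2 fold changes of -0.12, 0.08 and -0.27 and did not pass.

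A ratio of genes within 1 library does not depend on the scaling between libraries, and Per3 was used as the base for the repressors after its values were seen. Per1 was 1.61 to 2.04 times Per3 in control mice, 4.37 to 5.08 times in dbdb mice and 2.65 to 3.88 times in dbR mice. Per2 was 0.906 to 0.982 times Per3 in control mice, 1.85 to 2.25 times in dbdb mice and 1.41 to 1.60 times in dbR mice. For both ratios the 3 groups were fully separate, with the dbR mice in the middle. The ratio of Cry1 to Cry2 went from 0.117 to 0.166 in control mice to 0.298 to 0.518 in dbdb mice and 0.288 to 0.428 in dbR mice, where the diabetic groups overlapped. The mean log2 level of the 3 activators minus that of the 3 Per genes ranged from -2.91 to -1.55 in control mice, from -3.78 to -2.85 in dbdb mice and from -2.83 to -2.61 in dbR mice, so that the dbdb libraries overlapped the control libraries and stood just below the dbR libraries. Clock was 24.3 to 38.0 times Arntl in control mice, 16.1 to 39.7 times in dbdb mice and 11.7 to 15.7 times in dbR mice. With 3 libraries against 3, an exact permutation test of such a ratio cannot go below p = 0.10, so these are given as descriptions.

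**Figure D3:**
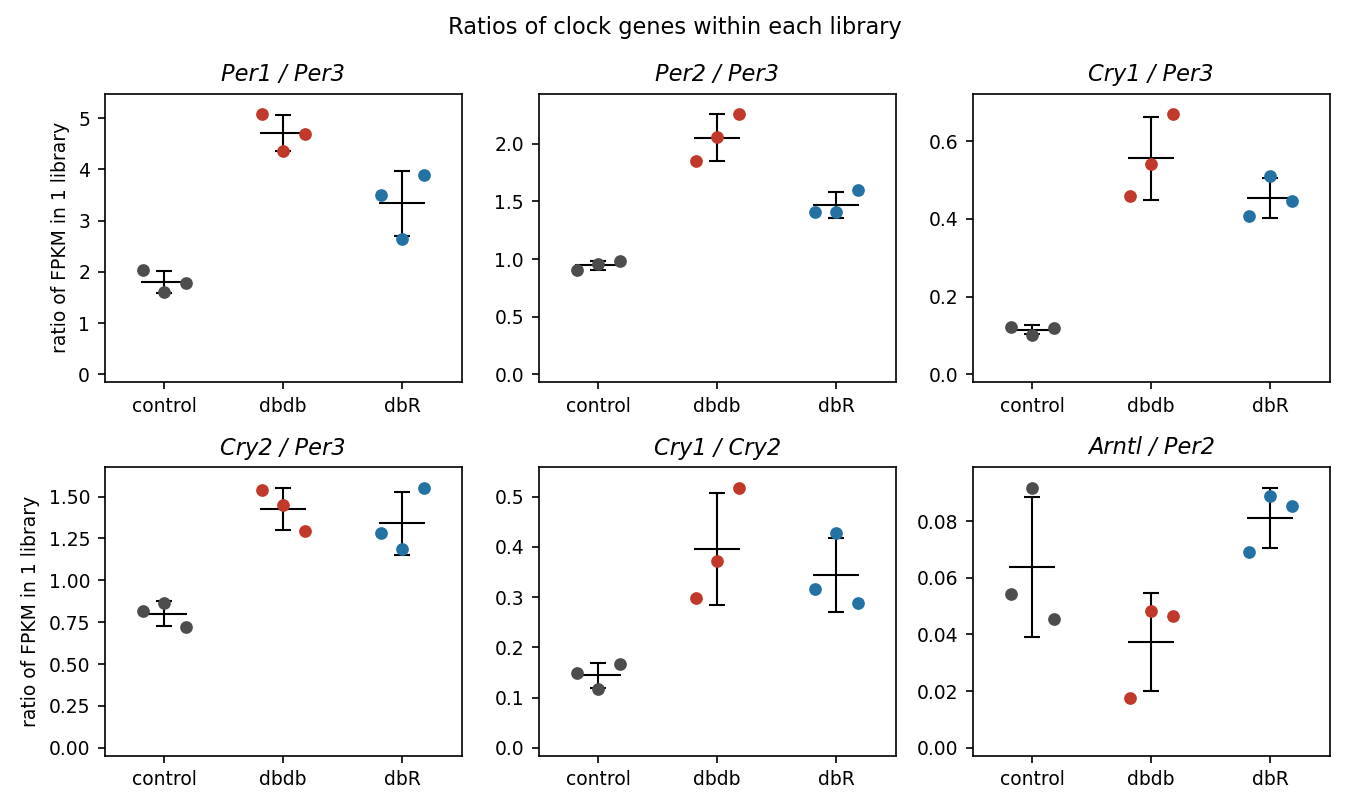
Ratio of the FPKM of 2 clock genes within the same library (vertical axes, from 0) by group, with 1 point per mouse and the mean ± SD as black bars. Per1 over Per3 and Per2 over Per3 separate the 3 groups, the ratio of Cry1 to Cry2 is higher in every dbdb and dbR library than in control mice, and Arntl over Per2 overlaps between control and both other groups.

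Several clock genes have more than 1 deposited transcript, and the FPKM of each depends on how Cufflinks divided the reads. Per1 had 5, of which ENSMUST00000021271 (4671 bases) carried 41.2% of the gene's FPKM in the control group, 44.3% in the dbdb group and 39.9% in the dbR group. The short transcript ENSMUST00000132462 (496 bases) carried 40.7%, 34.2% and 35.9%. In dbdb vs. control the log2 fold changes of these and of ENSMUST00000101004 and ENSMUST00000102605 were 1.59, 1.21, 1.58 and 1.89, and all 4 passed when every transcript was tested (limma adjusted p between 0.00175 and 0.00524). In dbR vs. dbdb the log2 fold changes of the same 4, in the same order, were -0.70, -0.46, -0.33 and -1.24. None of them passed (limma adjusted p between 0.188 and 0.608). The paper, with its own Cufflinks test, lists ENSMUST00000021271 as lower in dbR vs. dbdb at a q value under 0.05. In dbR vs. control ENSMUST00000021271 fell just short (0.89, limma adjusted p = 0.0546), while ENSMUST00000132462 passed (0.76, 0.0152). The fifth, ENSMUST00000166748, stood at 1.89 FPKM in dbR replicate 1 and at no more than 0.0259 in the other 8 libraries. Of the 2 Cry2 transcripts, ENSMUST00000090559 with 84.4% to 86.8% of the FPKM rose in dbdb vs. control (0.89, limma adjusted p = 0.00169), and ENSMUST00000111278 stood at 2.23 times its control mean and did not pass (0.147). The 3 Clock transcripts had log2 fold changes of -0.33 to -0.02 in that comparison and did not pass.
The full-length Npas2 transcript ENSMUST00000056815 read 0.245 to 0.536 FPKM in control mice, 0.0703 to 0.236 in dbdb mice and 0.148 to 0.312 in dbR mice, with a log2 fold change of -0.92 in dbdb vs. control (limma adjusted p = 0.221). The other Npas2 transcript, ENSMUST00000173050 (484 bases), was listed at 0 in 1 control and 1 dbdb library. It averaged 0.551, 0.344 and 0.375 FPKM in the control, dbdb and dbR groups. The full-length transcript averaged 0.367, 0.148 and 0.222 FPKM, so the short one carried the larger part of the gene's FPKM in each group. Arntl, Per2, Per3 and Cry1 had 1 transcript each.

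**Figure D4:**
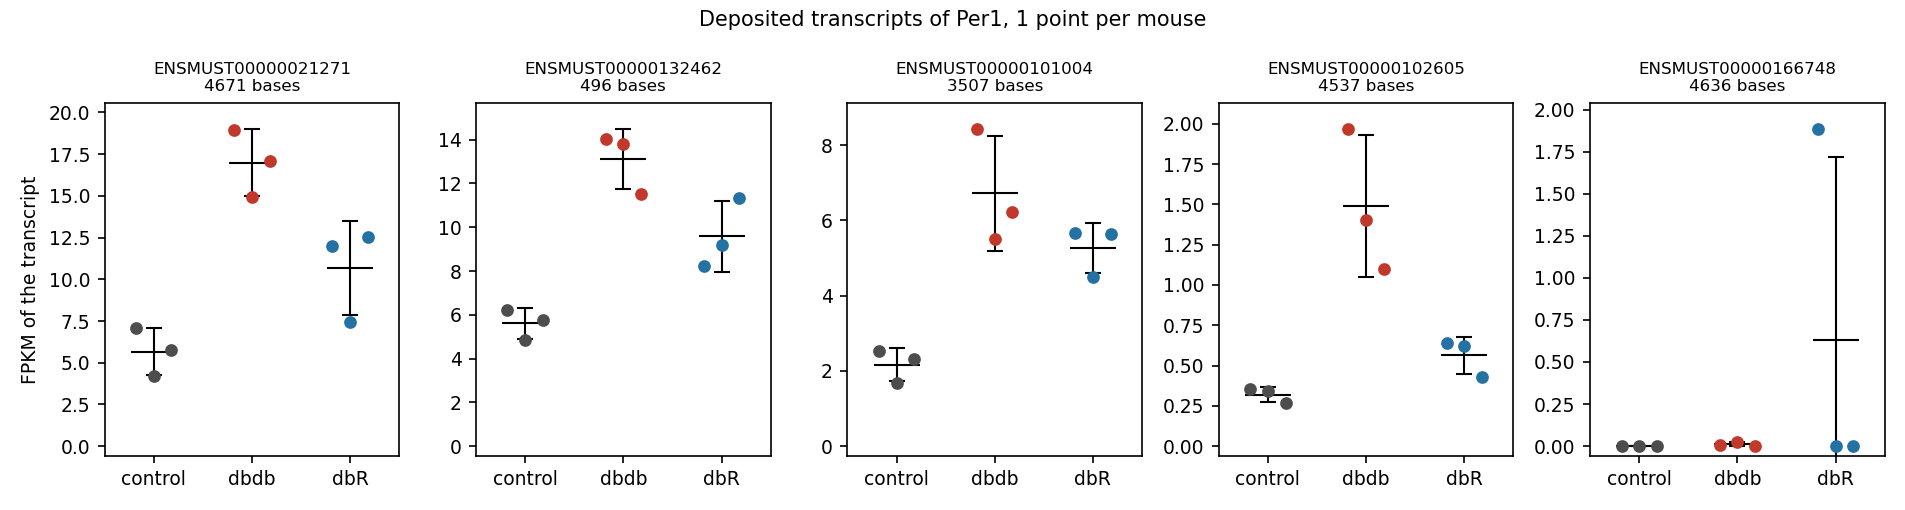
FPKM of each of the 5 deposited Per1 transcripts (vertical axes, from 0, each on its own scale) by group, with 1 point per mouse and the mean ± SD as black bars. In the first 4 panels every dbdb library is above every control library, and in the last panel a single dbR library at 1.89 FPKM stands apart from the others near 0.

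The genes of the second loop and the outputs moved in both directions. Of the 11 genes of this list, 6 passed in dbdb vs. control, 3 upward and 3 downward, 0 passed in dbR vs. dbdb (2 at an unadjusted p under 0.05) and 5 passed in dbR vs. control by limma, 2 upward and 3 downward. Among all genes 26.4% passed in dbdb vs. control (13.1% upward and 13.4% downward), 17.5% were at that unadjusted p between the diabetic groups, and 24.1% passed in dbR vs. control (12.3% upward and 11.8% downward). The median log2 fold changes of the list were 0.19, -0.09 and 0.06 in these comparisons. The list was chosen with earlier results of these data known.
Nr1d1, which encodes REV-ERBα, a repressor of Arntl, read 26.4, 26.9 and 19.9 FPKM in control mice, 11.2, 11.8 and 7.86 in dbdb mice and 16.4, 13.9 and 10.8 in dbR mice. Every diabetic library, treated or not, was below every control library (log2 fold change in dbdb vs. control -1.25, SE 0.19, limma adjusted p = 0.00130). Its relative Nr1d2 (REV-ERBβ) fell from 48.2 to 53.4 FPKM in control mice to 37.2 to 42.9 in dbdb mice (-0.30, limma adjusted p = 0.00975), a call lost under the scaling without mitochondrial transcripts (-0.14, 0.125). Rora, an activator of Arntl, had a log2 fold change of 0.16 (limma adjusted p = 0.262), and its relative Rorb was at or below 0.207 FPKM in every library.

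The output factors, which share the D-box, went different ways. Dbp read 59.3, 49.8 and 61.7 FPKM in control mice, 47.3, 39.1 and 33.5 in dbdb mice and 35.3, 37.5 and 37.0 in dbR mice, and it fell by 0.52 on the log2 scale in dbdb vs. control (SE 0.12, limma adjusted p = 0.0106). Hlf rose, from 35.0 to 38.4 FPKM in control mice to 50.5 to 54.9 in dbdb mice (0.54, SE 0.06, limma adjusted p = 0.000211). Tef, the most abundant of the 3, read 74.0 to 89.3 FPKM in control mice and 84.7 to 99.9 in dbdb mice and did not pass (0.19, limma adjusted p = 0.133). Nfil3, a repressor at the same D-boxes, read 1.20, 0.367 and 1.72 FPKM in control mice and 2.27, 2.98 and 3.66 in dbdb mice (1.54, SE 0.41, limma adjusted p = 0.0195). In dbR vs. control Nfil3 did not pass (1.11, limma adjusted p = 0.0727), and without dbdb replicate 2 or 3 its adjusted p in dbdb vs. control reached up to 0.0588.
Bhlhe40 (DEC1), which competes for E-boxes, rose from 23.5 to 28.6 FPKM in control mice to 31.8 to 36.2 in dbdb mice (0.37, limma adjusted p = 0.0282, up to 0.0951 in 18 alternatives, with the call lost in 6), and in dbR vs. control by 0.53 (0.00591). Its relative Bhlhe41 had a log2 fold change of -0.04 in dbdb vs. control and did not pass. Ciart (CHRONO), a further repressor of the CLOCK and ARNTL pair, read 9.72 to 18.6 FPKM in control mice, 14.6 to 25.5 in dbdb mice and 7.44 to 12.4 in dbR mice. The dbR values of Ciart were all below the dbdb values, with a log2 fold change of -0.84 that did not pass (limma adjusted p = 0.170).

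**Figure D5:**
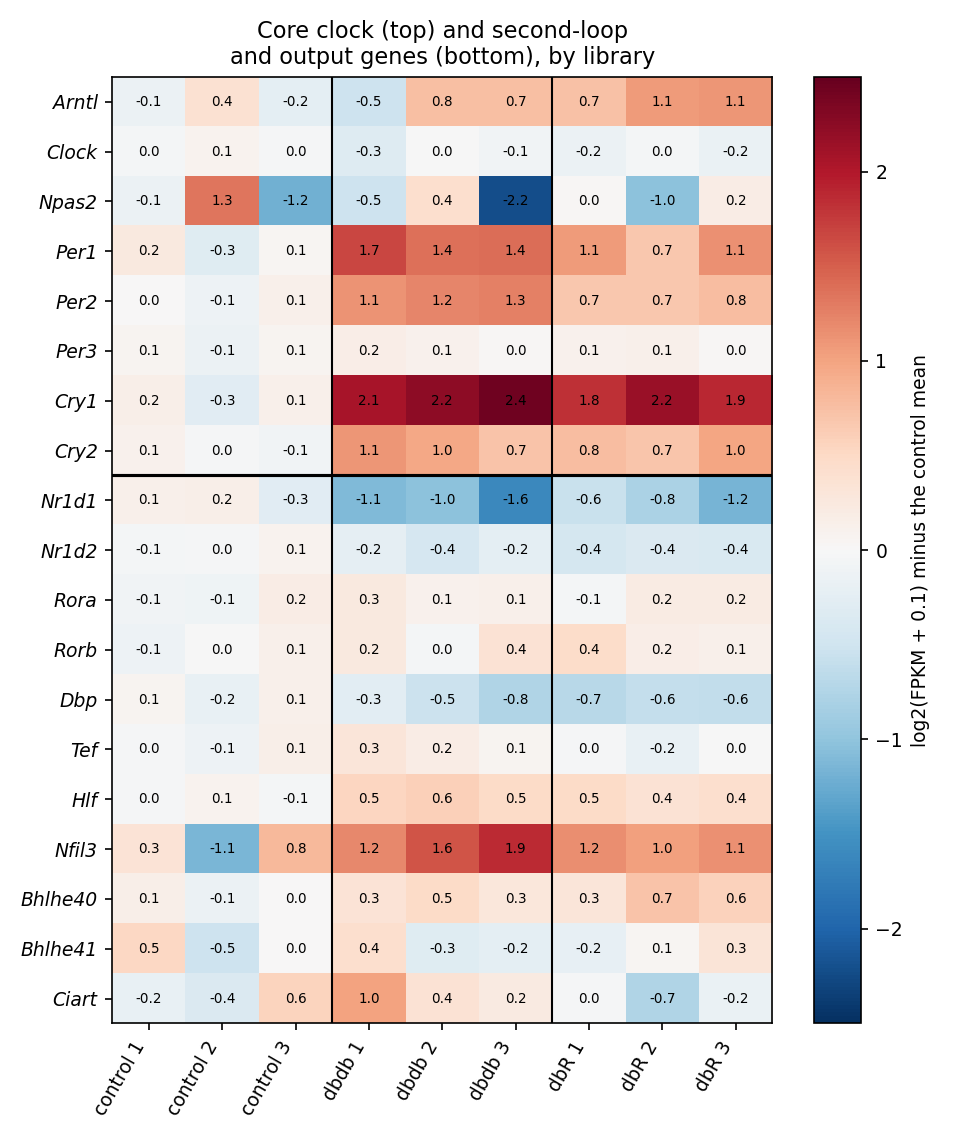
Level of the 8 core clock genes (above the line) and 11 second-loop and output genes (below it) in each of the 9 libraries, as log2(FPKM + 0.1) minus the mean of the control libraries (red higher, blue lower, values printed in the cells). Per1, Per2, Cry1 and Cry2 are red and Nr1d1 and Dbp are blue in all dbdb and dbR libraries, while the rows of Clock and Per3 stay near 0.

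Among 27 genes that encode kinases, ubiquitin ligases and other partners of the clock proteins, 5 passed in dbdb vs. control, 0 in dbR vs. dbdb (4 at an unadjusted p under 0.05) and 4 in dbR vs. control by limma. These shares of 27 are below those of all genes, which were 26.4%, 17.5% (at the unadjusted p) and 24.1% in the same order. The median log2 fold changes of this list were -0.03, -0.07 and -0.10 in these comparisons. Csnk1e, casein kinase 1 epsilon, which phosphorylates PER proteins, rose by 0.66 on the log2 scale in dbdb vs. control (limma adjusted p = 0.00724). Usp2, a deubiquitinase of clock proteins, read 60.3, 50.9 and 61.0 FPKM in control mice, 93.8, 92.5 and 90.9 in dbdb mice and 72.8, 61.6 and 75.6 in dbR mice. Like Per2 it stood between the other groups in the treated mice, with no overlap between the 3 groups. It rose by 0.69 in dbdb vs. control (SE 0.09, limma adjusted p = 0.000532), and its log2 fold change of -0.40 in dbR vs. dbdb did not pass (0.0692). Fbxw11 (a ubiquitin ligase subunit), Ncor1 (a corepressor) and Nono (a partner of PER proteins) fell by 0.21, 0.28 and 0.22 in dbdb vs. control. Under the scaling without mitochondrial transcripts these 3 calls were lost (limma adjusted p = 0.603, 0.301 and 0.412), and over 18 alternatives they were lost in 7, 1 and 6. Prkaa2, a catalytic subunit of AMPK, which phosphorylates CRY1, fell by 0.22 in dbR vs. control (limma adjusted p = 0.0269, up to 0.244 in the alternatives). Of the 4 calls in dbR vs. control 1, that of Csnk1e, held in every alternative, and those of Usp2 (0.29, limma adjusted p = 0.0443), Prkaa2 and Fbxw11 were lost in 11, 8 and 1 of 18.

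Of 19 genes known for daily rhythms in the kidney, 16 passed in dbdb vs. control, 14 upward and 2 downward, and 13 passed in dbR vs. control, 10 upward and 3 downward. In dbR vs. dbdb 2 passed, both downward. Among all genes 26.4%, 24.1% and 0.743% passed in dbdb vs. control, dbR vs. control and dbR vs. dbdb. This list was chosen with earlier results of these data known, so its counts beside those of all genes are a description. Over 18 alternatives 15 of the 16 calls in dbdb vs. control held in every one, the exception being Slc6a6, and 9 of the 13 in dbR vs. control, where Wee1, Slc9a3, Tsc22d3 and Aqp2 lost theirs in 10, 7, 6 and 2 of them. The median log2 fold changes of this list were 0.64 in dbdb vs. control, 0.51 in dbR vs. control and -0.31 in dbR vs. dbdb. Sgk1, a kinase that activates sodium transport, read 30.2, 35.3 and 35.4 FPKM in control mice, 176, 165 and 297 in dbdb mice and 78.6, 95.4 and 213 in dbR mice (2.61 in dbdb vs. control, limma adjusted p = 0.000467). Scnn1a, the alpha subunit of the epithelial sodium channel, rose by 1.35 and in dbR vs. control by 1.28. The water channel Aqp4 and the glycine transporter Slc6a9 fell by 1.54 and 1.08 in dbdb vs. control. Pdk4, a kinase that restrains glucose oxidation, and Cdkn1a, the cell cycle inhibitor p21, rose by 1.60 and 1.75 in dbdb vs. control and fell by 0.98 and 1.24 in dbR vs. dbdb (limma adjusted p = 0.0254 and 0.0296). Those falls kept their direction in 18 alternatives, but the call was lost in 7 of them for Pdk4 (adjusted p up to 0.109) and in 8 for Cdkn1a (up to 0.150).

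Glucocorticoid-responsive and immediate-early genes were examined in the same libraries. Both lists were chosen with earlier results of these data known, so their counts beside those of all genes are a description. Of 14 genes known to respond to glucocorticoids, a list that includes Per1 and shares Sgk1, Tsc22d3 and Cdkn1a with the kidney list, 12 passed upward in dbdb vs. control, 2 passed downward in dbR vs. dbdb and 10 passed upward in dbR vs. control. Among all genes 13.1% passed upward, 0.179% downward and 12.3% upward in these comparisons. The downward calls were Cdkn1a and Klf9, and that of Klf9 was lost in 11 of 18 alternatives (limma adjusted p up to 0.165). The median log2 fold change of the list was 1.42 in dbdb vs. control, -0.39 in dbR vs. dbdb and 1.04 in dbR vs. control. Fkbp5, a co-chaperone of the glucocorticoid receptor, read 24.6, 14.7 and 17.4 FPKM in control mice, 57.6, 73.9 and 69.1 in dbdb mice and 43.5, 41.7 and 42.5 in dbR mice (1.85 in dbdb vs. control, limma adjusted p = 5.90e-05). Zbtb16, a transcription factor, rose by 2.78 in dbdb vs. control and by 2.12 in dbR vs. control. Of 12 immediate-early genes tested, which respond within minutes to handling and other stimuli, 6 passed in dbdb vs. control (5 upward), 0 in dbR vs. dbdb (3 at an unadjusted p under 0.05) and 2 in dbR vs. control by limma, with median log2 fold changes of 0.47, -0.16 and 0.17. Among all genes 26.4% and 24.1% passed in the comparisons with the control group and 17.5% were at that unadjusted p. The 2 called in dbR vs. control were Btg2 and Zfp36, both upward, where 12.3% of all genes passed upward, and the call of Btg2 was lost in 3 of 18 alternatives (limma adjusted p up to 0.0593). The downward call, Egr2, was lost in 10 of 17 alternatives. Nr4a1, an orphan nuclear receptor, rose by 1.44 in dbdb vs. control, a call lost without control replicate 1 or 3 (limma adjusted p up to 0.0635), and Fos had a log2 fold change of 0.73 that did not pass (limma adjusted p = 0.240). The part of these groups in the clock gene values was not tested.

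Cell type markers also differed between the groups, where 13.1% of all genes passed upward and 13.4% downward in dbdb vs. control. Of 6 collecting duct markers 5 were higher in dbdb vs. control, among them Aqp2, which is also on the kidney list, and their sum was 100.3 to 119 FPKM in control mice, 149.9 to 239 in dbdb mice and 162 to 181 in dbR mice. Of 5 markers of the loop of Henle and distal tubule 3 were higher, with sums of 535 to 635, 750.2 to 1051 and 805 to 891 FPKM. Macrophage and leukocyte markers were lower for 5 of 6, with sums of 17.9 to 21.1, 6.56 to 8.64 and 10.4 to 10.8 FPKM, and endothelial markers were lower for 4 of 5, with sums of 104 to 117, 79.1 to 86.2 and 110.03 to 128 FPKM. In dbR vs. dbdb, where Per2 fell, 4 of 44 markers tested over all marker lists rose by limma. Among all genes 0.743% passed in either direction, and 82 of 14537 passed upward. The 4 markers were the endothelial markers Emcn and Kdr, the collecting duct marker Atp6v1g3 (0.52, limma adjusted p = 0.0251) and Pdgfrb of the fibroblast and smooth muscle list (0.69, 0.0234). The alternative analyses did not cover these 4 calls, and the markers were chosen with earlier results of these data known. Of 5 podocyte markers 2 were higher in dbdb vs. control, with sums of 73.4 to 83.8, 85.98 to 92.3 and 79.4 to 96.6 FPKM. None of 4 fibroblast and smooth muscle markers passed in dbdb vs. control by limma (2 at an unadjusted p under 0.05), with sums of 15.9 to 31.3, 13.9 to 18.9 and 17.1 to 22.04 FPKM. Of 2 inner medulla markers tested 1 was lower, with sums over the 3 listed of 56.8 to 78.4, 33.7 to 41.5 and 34.99 to 37.9 FPKM. Proximal tubule sums were 5809 to 6271 FPKM in control mice, 4696 to 5590 in dbdb mice and 5653 to 5815 in dbR mice, with 2 of 8 markers higher and 1 lower in dbdb vs. control. No marker of these 8 lists was at 0 in all libraries, and the part of cell composition in the clock gene values was not tested.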

How the data were processed

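Total RNA of the renal cortex of 9 mice, 3 per group, was depleted of ribosomal RNA and made into strand-specific libraries with 150-base paired reads. According to the submitters' processing notes, TopHat2 (version 2.0.9) and Cufflinks (version 2.1.1) were used with GRCm38.p2. The authors deposited FPKM values per transcript and library, a unit divided by transcript length and by mapped fragments, with the reads of a gene divided among its transcripts by Cufflinks. It holds no read counts; fragments per library were estimated from the smallest steps between low values, and they set the precision of the low genes.

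FPKM was summed per gene identifier, and log2(FPKM + 0.1) of 14537 genes with a mean of at least 0.1 entered 1 limma model (version 3.58.1 under R 4.3.3) of 3 groups over 9 libraries, with a variance trend. Tests are two-sided, and p-values were adjusted by Benjamini-Hochberg over all genes. For low genes this scale makes fold changes too small. The fit was tested on simulated data and recovered 74.5%, 81% and 81.5% of 200 genes changed by 1 on the log2 scale in dbdb vs. control, dbR vs. dbdb and dbR vs. control, and 39.5%, 41% and 36.5% of 200 changed by 0.5. Groups came from the sample labels, treatment from the study's methods.

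The clock genes, gene lists and markers were chosen with earlier results of these data known. The genes named were the 8 clock genes and their transcripts, Lepr, the second-loop genes, at most 6 called genes of each other list, the 3 genes most correlated with each clock gene that passed, and lncRNAs overlapping a clock gene, and 2 genes that this rule names are not reported here. Beyond this rule, Fos, Emcn, Kdr, Atp6v1g3, Pdgfrb, Star, Tsc22d3, Klf9, Egr2, Btg2, Zfp36, Wee1, Slc9a3, Slc6a6, Aqp2, Cyp11b1 and Gm17090 were named after their values were seen. Coordinates are from GENCODE for GRCm38, promoters from RefSeq (GRCm38.p6). Alternatives covered the pseudocount (1 or 0.01), the filter, the scaling, the libraries fitted, the variance trend, transcripts, a replicate block and leaving out each library. Calculations outside R used python 3.11.15, numpy 2.4.6 and pandas 2.3.3, and figures matplotlib 3.10.9.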

Additional observations from a re-analysis of the deposited data

How the results depend on the processing

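Of the results for single clock genes under the alternatives, 423 kept their direction and their side of the threshold. Another 10 lost and 6 gained the call, and 11 changed sign, all for genes that had not passed. In dbdb vs. control 4 clock genes passed under every alternative except without dbdb replicate 1, where Arntl joined (0.75), and without mitochondrial transcripts, where Per3 joined. That scaling turned Clock to 0.0149 in dbdb vs. control and to -0.0416 in dbR vs. dbdb, and made 78.3% of the calls upward against 49.5%. In dbR vs. control the share went from 51.1% to 70.5%, or to 61.9% with 75th percentile scaling, and in dbR vs. dbdb from 75.9% to 48.6%. The other changes of sign were Per3 in dbR vs. dbdb with 75th percentile scaling (0.0106), Npas2 in dbR vs. control with transcripts (0.18), and with a library left out Clock (-0.0696 to 0.0866), Per3 (-0.059 to 0.0187) and Npas2 (-0.22 to 1.096) in dbR vs. dbdb and Npas2 in dbR vs. control (-0.87 to 0.40). The call of Per2 in dbR vs. dbdb was lost, leaving 0 clock genes, with no filter (limma adjusted p = 0.0524), no variance trend (0.0711), transcripts (0.102), a replicate block (0.0594) and without each of 5 libraries. The call of Per1 in dbR vs. control was lost with transcripts (limma adjusted p = 0.0546). Genes called in dbR vs. dbdb numbered 108, but 31 with no filter, 166 at a mean FPKM of at least 1, 224 with 75th percentile scaling, 36 with the 6 libraries alone, 18 with no variance trend, 5 with transcripts, 23 with a replicate block, and 2 (without dbR replicate 2) to 141 (without dbdb replicate 3) when a library was left out. Leaving out a library gave 2755 to 3834 genes in dbdb vs. control and 2477 to 3570 in dbR vs. control. Replicate numbers did not pair the mice: deviations of same-numbered libraries correlated at -0.17 to 0.06 and of others at -0.11 to 0.17, and under the block Arntl in dbR vs. control passed (limma adjusted p = 0.0391). At a mean FPKM of at least 1, Arntl and Npas2 could not be tested. The causes of these changes were not tested. Arntl and Npas2 had an estimated 20 to 81 and 8 to 72 fragments per library, and whether depth limits their calls was not tested.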

Other observations

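The genes whose pattern over the 9 libraries was most like that of each clock gene that passed were listed among the 11609 other genes averaging at least 1 FPKM, by Pearson r on log2(FPKM + 0.1), as a description. These points share the group structure of 3 mice each. For Per1 they included Pklr (pyruvate kinase of liver and kidney, r = 0.99) and Flot2 (0.98). For Per2 they were Herpud1 (a protein of the endoplasmic reticulum stress response, 0.99), Aptx (0.99) and Gpr160 (0.98), and Herpud1 read 156 ± 13.2, 258 ± 4.58 and 205 ± 10.1 FPKM in the 3 groups. For Cry1 they were Isyna1 (inositol-3-phosphate synthase), Wfdc2 and Exph5, each at 0.99, and Wfdc2 read 33.97 ± 2.70, 81.2 ± 3.73 and 81.4 ± 5.94 FPKM. For Cry2 they were Peli2 (0.99), Ehbp1 (0.99) and Agfg2 (0.98). Among the clock genes themselves, Per1 and Per2 had an r of 0.96 and Per2 and Cry1 of 0.95.

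Of the 2043 annotated lncRNAs with coordinates, out of 2071, 2 overlapped a clock gene. Gm43658 lies on the minus strand within the span of Clock, on the same strand, and read 0.561 to 0.657 FPKM in the control libraries, 0.589 to 0.847 in the dbdb libraries and 0.510 to 0.773 in the dbR libraries. D930015M05Rik lies antisense to Cry2 and read 0.183 to 0.498 FPKM in the control libraries, 0.390 to 0.631 in the dbdb libraries and 0.418 to 0.642 in the dbR libraries. Gm17090 lies 94881 bases from Per2 and was at or below 0.739 FPKM in every library. No lncRNA assembled by the authors lay within 100 kb of a clock gene.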
